A study of Mus musculus with 24 samples.

Results

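miR-146a-5p (MIMAT0000158) and miR-146b-5p (MIMAT0003475) are the 2 mature microRNAs of the mouse miR-146 family, and they are described here in subcutaneous adipose tissue of trained and sedentary female mice. They were taken by their accessions and make up 2 of the 2045 miRNA loci in the count table. They were chosen by values from the same 24 libraries: their levels, the ratio of the first to the second and its relation to miR-150-5p, with the training difference of miR-146b-5p already known. Values that went into that choice are given below as a description, without a test. Both passed the filter on low counts that kept 654 features.

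Small RNA was sequenced from 24 libraries, 6 in each of 4 groups: trained kinase dead, sedentary kinase dead, trained wild type and sedentary wild type. All were labelled as subcutaneous adipose tissue from females fed chow. Per the labels' protocols, training was treadmill running at 16 m/min for 1 hour on 5 days a week over 6.5 weeks, with free access to a running wheel. Neither the labels nor the protocols name the kinase behind the kinase dead label, the strain or the age. They also leave unsaid whether each library stands for its own mouse, and p-values accordingly measure only how these libraries spread. Library totals ran from 1.60 to 23.6 M reads. Median totals were 9.67 M in trained kinase dead, 5.997 M in sedentary kinase dead, 10.8 M in trained wild type and 3.75 M in sedentary wild type. Every library held at least 1530 reads of miR-146a-5p and 1839 of miR-146b-5p, so counting error is small beside the spread between libraries. The miRNAs taken as adipose markers (miR-148a-3p, miR-378a-3p, miR-193b-3p and both loci of miR-365-3p) were abundant in each library, with sums of 36135 to 58623 CPM (read counts scaled to a common library total, with TMM factors).

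MicroRNAs of the miR-146 family are induced by NF-kB and repress the adaptor proteins IRAK1 and TRAF6, which carry signals from Toll-like and interleukin-1 receptors, so they act as feedback brakes on inflammation. miR-146a is abundant in lymphocytes and myeloid cells and restrains T cell responses, while miR-146b is known in adipose tissue, where it has been reported to favour adipocyte differentiation. miR-150 is a microRNA of mature lymphocytes and serves here as the measure of lymphocyte content. In bulk tissue, fewer cells of a type and less of an RNA per cell cannot be told apart.

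The mature sequences are shown because the 2 members share a seed, the stretch that selects targets, and the counts rest on telling them apart by the few bases near the 3′ end. Sequences are from RefSeq on GRCm38.p6, 5′ to 3′, with the seed (bases 2 to 8) in capitals.
miR-146a-5p: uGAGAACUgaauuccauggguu
miR-146b-5p: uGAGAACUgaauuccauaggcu
Counted from 1 at the 5′ end, miR-146b-5p differs from miR-146a-5p by the substitutions G18A and U21C. The other 20 of 22 bases are identical, including the first 17 and the whole seed. Among the 1738 mature entries of the mouse table, the seed GAGAACU occurs in these 2 and in no other, so they form a family of their own in that table. A read that ends before base 18 would match both, and the sources used here do not give how such reads were assigned.

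The companion arms from the opposite side of each hairpin are shown because they tell the 2 hairpins apart where the 5p arms nearly coincide. Capitals mark bases 2 to 8.
miR-146a-3p: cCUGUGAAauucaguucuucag
miR-146b-3p: gCCCUAGGgacucaguucuggu
In the hairpins, capitals mark the mature 5p arm.
Mir146: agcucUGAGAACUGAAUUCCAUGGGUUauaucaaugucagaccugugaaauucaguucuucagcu
Mir146b: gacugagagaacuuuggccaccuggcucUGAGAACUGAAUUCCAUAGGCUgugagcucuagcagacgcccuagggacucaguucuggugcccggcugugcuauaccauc

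Each member has a single locus in the table. On GRCm38, miR-146a-5p lies at chr11:43374435-43374456 on the minus strand, in the hairpin Mir146 (43374397 to 43374461). No exon of another annotated gene overlaps that hairpin, nor does a protein-coding, lincRNA, antisense or processed transcript gene. The nearest protein-coding gene, Pttg1, is 45789 bp away. miR-146b-5p lies at chr19:46342790-46342811 on the plus strand, in the hairpin Mir146b (46342762 to 46342870). That hairpin sits in an intron of Mfsd13a (46341121 to 46375252), on the same strand and outside every Mfsd13a exon. Nfkb2, which encodes an NF-kB subunit, lies 30377 bp away on the same chromosome, with other genes nearer, such as Cuedc2 at 4060 bp. No counted locus on the opposite strand overlaps either member, so neither shares its reads with an antisense locus.

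Nearly all reads of both hairpins came from the 5p arm. miR-146a-3p had 201 reads beside 276669 of miR-146a-5p over all libraries, a 3p share of 0.0726% (Wilson 95% interval 0.0632 to 0.0833%), and 0 to 26 reads in a library. miR-146b-3p had 2207 reads beside 267697 of miR-146b-5p, a share of 0.818% (0.784 to 0.852%), and 14 to 297 reads in a library. The Wilson intervals cover counting error only. The 3p arm of Mir146b was thus the more frequent of the 2, and its share stayed between 0.471 and 1.18% in every library.

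The 2 members stood at like average levels. miR-146a-5p averaged 1478 ± 920 CPM and miR-146b-5p 1333 ± 456 CPM (SD, n = 24), which placed them at ranks 74 and 79 of the 654 features. They differed in how much they varied. The highest library held 5.63 times the lowest for miR-146a-5p and 3.67 times for miR-146b-5p. On the log2 scale the SD over libraries was 0.79 for miR-146a-5p and 0.45 for miR-146b-5p, beside a median of 0.34 over the 384 features of at least 10 CPM, where they ranked 39 and 102 from the most variable.

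miR-146a-5p spread widely in all 4 groups. In trained kinase dead it ran from 736 to 3244 CPM with a median of 920 CPM, and in sedentary kinase dead from 840 to 3457 CPM with a median of 1260 CPM. In trained wild type it ran from 637 to 2343 CPM with a median of 835 CPM, and in sedentary wild type from 918 to 3589 CPM with a median of 1176 CPM. Each group held 1 or 2 libraries far above the rest, so the 4 groups overlapped over most of their range.

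miR-146b-5p was more even. In trained kinase dead it ran from 850 to 1939 CPM with a median of 1105 CPM, and in sedentary kinase dead from 1103 to 2767 CPM with a median of 1402 CPM. In trained wild type it ran from 754 to 1114 CPM with a median of 1075 CPM, and in sedentary wild type from 955 to 1910 CPM with a median of 1578 CPM. The trained medians were the lower in both genotypes, and the ranges of trained and sedentary libraries overlapped in both.

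**Figure D1:**
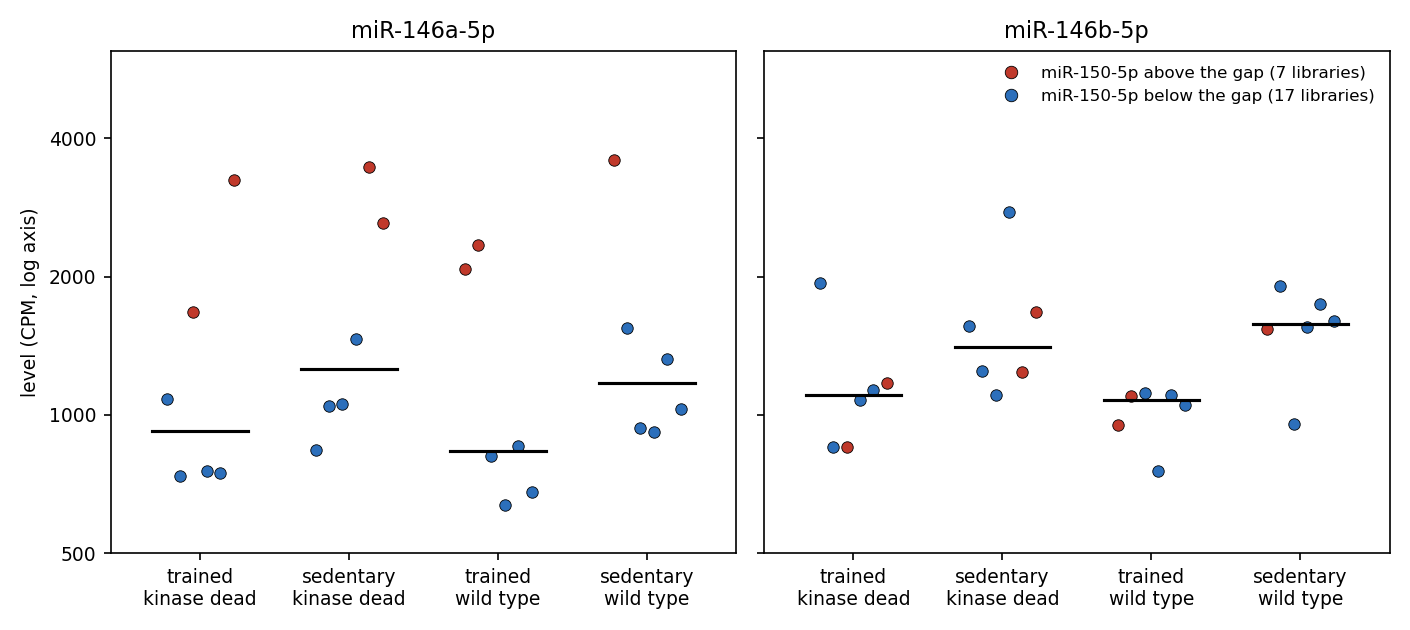
Level of miR-146a-5p (left) and miR-146b-5p (right) in CPM on a log axis, 1 point per library and a bar at each group's median, with the 7 libraries rich in miR-150-5p in red and the other 17 in blue. For miR-146a-5p the red points, at 1672 to 3589 CPM, lie above every blue point, while for miR-146b-5p red and blue points mix.

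The high libraries of miR-146a-5p were those with high miR-150-5p. miR-150-5p fell into 2 clusters with nothing in between: 7 libraries at 3460 to 6954 CPM and 17 at 551 to 1005 CPM. The gap was 3.44-fold wide and the next widest step between neighbouring libraries 1.31-fold. The 7 were replicates 3 and 6 of trained kinase dead, 5 and 6 of sedentary kinase dead, 1 and 2 of trained wild type and 1 of sedentary wild type, so every group held some. These 2 sets were defined from the measured miR-150-5p and are not groups of the study.

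Some other miRNAs of the lymphocyte list were high in the same 7 libraries, and some were not. The 9 features of the lymphocyte list, miR-150-5p among them, summed to 15796 to 25966 CPM in the 7 libraries, against 3934 to 6203 CPM in the 17. No defining marker was at 0. miR-155-5p, an activation miRNA of lymphocytes and macrophages, was at 295 to 537 CPM in the 7, against 46.8 to 80.7 CPM in the 17. miR-142a-5p, present throughout the blood lineages, was at 5967 to 11389 CPM in the 7, against 483 to 1305 CPM in the 17. miR-223-3p, the miRNA of neutrophils and other myeloid cells, was at 151 to 212 CPM in the 7, against 135 to 240 CPM in the 17. Of the 9 lymphocyte features, 5 lay higher in all 7 libraries than in all 17. For miR-150-5p this holds by construction, since it defines the sets. The rest of the 5 are miR-155-5p, miR-142a-5p, miR-142a-3p and miR-342-3p. Of the 653 features other than miR-150-5p, 82 (12.6%) had all 7 above all 17. The other 4 lymphocyte features overlapped between the sets, as miR-223-3p did. They are the 2 loci of miR-181a-5p, at 1407 to 1706 and 1357 to 1743 CPM in the 7, against 779 to 1656 and 836 to 1780 CPM in the 17, and the 2 loci of miR-181b-5p, at 212 to 265 and 214 to 338 CPM in the 7, against 149 to 306 and 189 to 355 CPM in the 17.

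miR-146a-5p split along the same line and miR-146b-5p did not. In the 7 libraries miR-146a-5p ran from 1672 to 3589 CPM with a median of 2618 CPM, and in the 17 from 637 to 1542 CPM with a median of 918 CPM. The sets did not overlap, though the lowest of the 7 lies close to the highest of the 17. Of the 653 features other than miR-150-5p, 82 (12.6%) likewise had all 7 above all 17. miR-146b-5p ran from 850 to 1670 CPM with a median of 1174 CPM in the 7 and from 754 to 2767 CPM with a median of 1131 CPM in the 17, with full overlap. No test is given, since the relation entered the choice of the members.

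**Figure D2:**
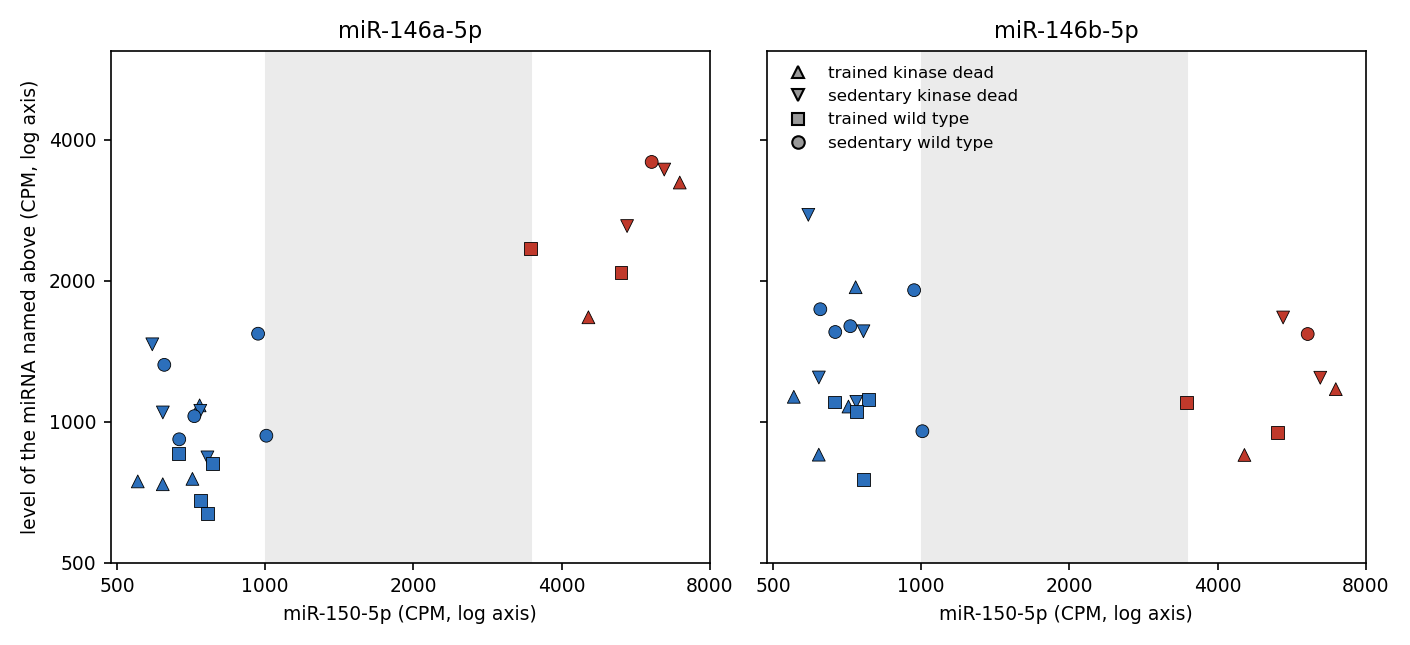
miR-150-5p on the horizontal axis against miR-146a-5p (left) and miR-146b-5p (right) on the vertical axis, all in CPM on log axes, 1 point per library, with the shape marking the group and the grey band the gap between 1005 and 3460 CPM of miR-150-5p. miR-146a-5p is higher to the right of the band than anywhere to its left, and miR-146b-5p covers a like range on both sides.

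The ratio of miR-146a-5p to miR-146b-5p, in which the scaling of a library cancels, separated the 2 sets more widely than either level. It was 1.57 to 2.78 in the 7 libraries and 0.529 to 0.978 in the 17, so miR-146a-5p was the more abundant member in each of the 7 and miR-146b-5p in each of the 17. As a share of their sum, miR-146a-5p made up 61.1 to 73.6% in the 7 and 34.6 to 49.4% in the 17. The median ratio was 2.19 in the 7 and 0.730 in the 17.

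By group, the ratio ran from 0.559 to 2.76 with a median of 0.783 in trained kinase dead and from 0.529 to 2.78 with a median of 0.899 in sedentary kinase dead. It ran from 0.646 to 2.19 with a median of 0.812 in trained wild type and from 0.590 to 2.33 with a median of 0.784 in sedentary wild type. The group medians lie close together, and each group spans much of the whole range, with libraries of both sets in each. The log2 ratio was higher by 0.15 (SE 0.48) in sedentary kinase dead than in sedentary wild type. In trained kinase dead minus trained wild type it was -0.04 (SE 0.51). Between trained and sedentary libraries the difference was 0.05 (SE 0.54) in kinase dead and 0.24 (SE 0.44) in wild type. All 4 differences are smaller than their SE, and they carry no test because the ratio entered the choice of the members. The kinase dead training value turned with 1 library: without trained replicate 6 it was -0.24. As a difference of group medians it was -0.21.

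**Figure D3:**
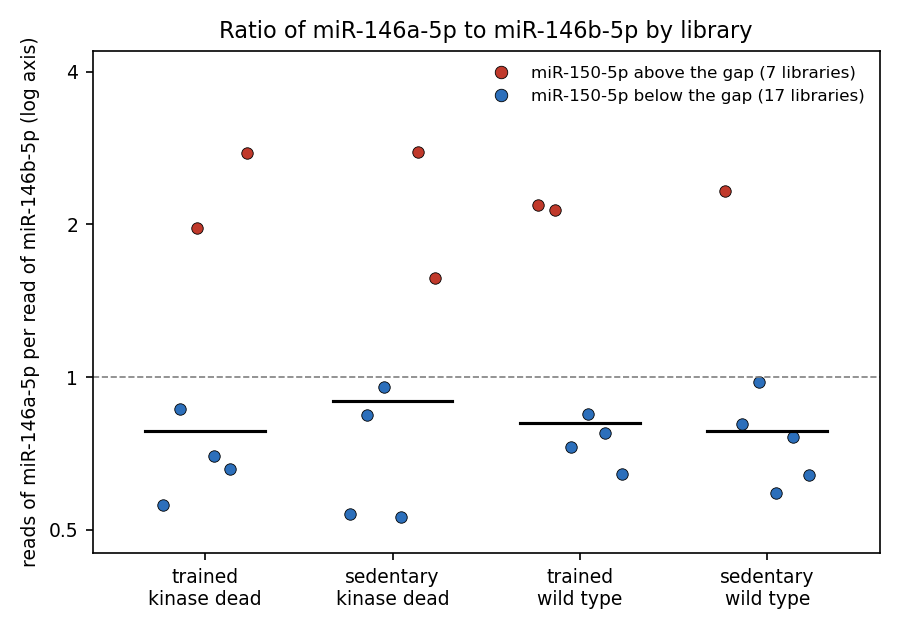
Reads of miR-146a-5p per read of miR-146b-5p on a log axis, 1 point per library, by group, with bars at the medians and the dashed line at equal levels. The 7 libraries rich in miR-150-5p (red) lie above the line at 1.57 to 2.78 and the other 17 (blue) below it at 0.529 to 0.978.

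The relation to miR-150-5p was then read within each set of libraries. These correlations are descriptions on log2 CPM (Pearson's r) and ranks (Spearman's rho), without p, and levels in 1 library share its depth and scaling. Among the 7, miR-146a-5p and miR-150-5p had r = 0.68 and rho = 0.75, and r = 0.96 without the 2 libraries farthest from the median of miR-150-5p. Among the 17, they had r = 0.08 and rho = -0.04, and r = -0.32 without the 2 farthest. miR-146b-5p and miR-150-5p had r = 0.39 and rho = 0.54 among the 7, and r = -0.13 and rho = -0.20 among the 17. Among the 17 libraries miR-146a-5p therefore did not follow miR-150-5p, although its levels there spanned 637 to 1542 CPM.

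The 2 members varied together among the 17, where miR-146b-5p ranked 3 among the features most like miR-146a-5p. They had r = 0.82 and rho = 0.79 there, and r = 0.72 without the 2 libraries farthest from the median of miR-146a-5p. Among the 7 they had r = 0.73 and rho = 0.79, but r = 0.38 without the 2 farthest, so that value rests on those libraries. Over all 24 libraries, which mix the 2 sets, rho was 0.37. The 17 hold both trained and sedentary libraries, and the averaged training log2 fold change there was -0.51 for each member. The part of that difference in the correlation was not tested. Reads that end before base 18 match both members, and how they were assigned is not given. The part of such reads in the correlation was not tested either.

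**Figure D4:**
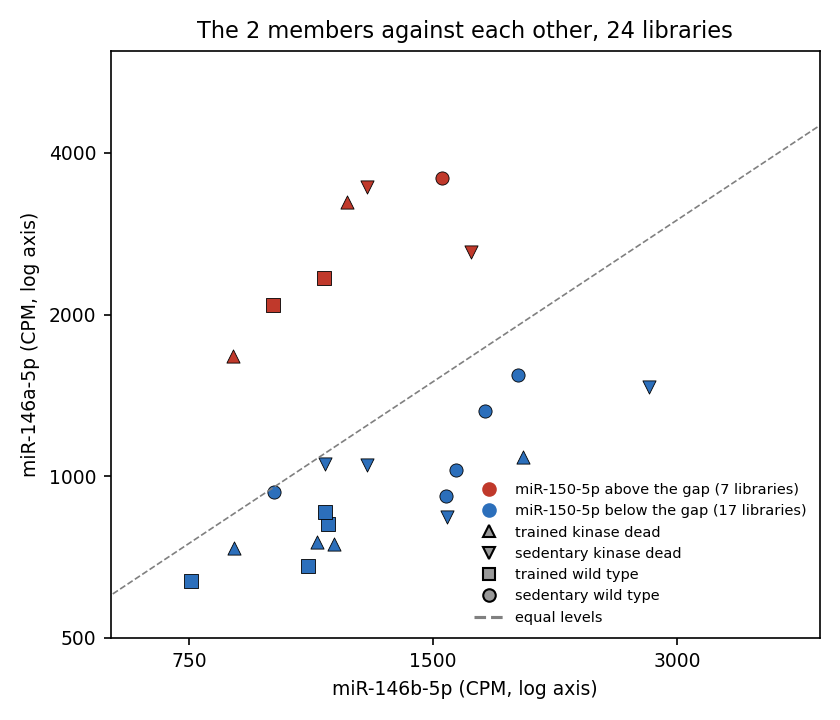
miR-146b-5p (horizontal) against miR-146a-5p (vertical) in CPM on log axes, 1 point per library, with the shape marking the group and the dashed line equal levels. The 7 libraries rich in miR-150-5p (red) and the other 17 (blue) form separate bands on either side of the line, and among the 17 the 2 members are mostly high and low in the same libraries.

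The features whose pattern was most like each member were named by Spearman's rho among 383 others of at least 10 CPM. Over the 24 libraries, those most like miR-146a-5p were miR-3535 (rho = 0.89), miR-155-5p (0.88), miR-3969 (0.86), miR-142a-5p (0.85) and miR-7a-5p (0.82). miR-150-5p itself ranked 35 with rho = 0.63. Those most like miR-146b-5p were its own companion miR-146b-3p (rho = 0.75), miR-370-3p (0.72), miR-127-5p (0.69), miR-127-3p (0.66) and miR-379-5p (0.61). miR-370, miR-127 and miR-379 belong to the imprinted Dlk1-Dio3 region. The 2 members thus had different nearest patterns over all libraries, with lymphocyte-list features beside miR-146a-5p and none beside miR-146b-5p.

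Over the 17 libraries the nearest patterns were largely shared. For miR-146b-5p the first was miR-146a-5p (rho = 0.79), ahead of miR-34c-5p (0.76), miR-379-5p (0.75), miR-16-1-3p (0.75) and miR-3535 (0.71). For miR-146a-5p they were miR-34c-5p (0.86), miR-3535 (0.81), miR-146b-5p (0.79), miR-379-5p (0.74) and miR-374c-3p (0.73), of which the last overlaps a counted locus on the opposite strand. miR-155-5p and miR-142a-5p were not among the 5 there.

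The average of miR-146b-5p was lower in trained than in sedentary libraries in both genotypes, with overlap between the groups. These differences were known when the members were chosen. The values below are therefore a description, and their intervals make no allowance for that choice. In wild type the 6 trained libraries averaged 1012 ± 140 CPM and the 6 sedentary ones 1550 ± 323 CPM (SD). All 6 trained libraries lay under the sedentary median, and 5 of 6 sedentary libraries lay above the highest trained one, at 1114 CPM, the exception being replicate 3 at 955 CPM. The log2 fold change was -0.62 (SE 0.22, 95% interval -1.07 to -0.16). In kinase dead the 6 trained libraries averaged 1171 ± 401 CPM and the 6 sedentary ones 1598 ± 612 CPM. There 5 of 6 trained libraries lay under the sedentary median, and only 1 sedentary library, replicate 4 at 2767 CPM, lay above the highest trained one. The log2 fold change was -0.45 (SE 0.22, -0.90 to 0.01), and without that sedentary library it was -0.22.

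Averaged over genotypes the trained to sedentary ratio of miR-146b-5p was 0.692 (log2 fold change -0.53, SE 0.16, -0.85 to -0.21). That contrast of miR-146b-5p was known when the members were chosen, so its values stand as a description. By edgeR, no feature passed the threshold after Benjamini-Hochberg adjustment in any of the 3 training contrasts. The count was 0 of 654 (0%) in wild type, in kinase dead and on average, and DESeq2 also called 0. An unadjusted p under 0.05 was reached by 38 features in wild type, 17 in kinase dead and 37 on average. The median log2 fold change of all 654 features lay between -0.02 and -0.01 in the 3 contrasts.

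Marker sums of several cell types and the depth also differed in their group medians between trained and sedentary libraries. The 2 myeloid features, miR-223-3p and miR-223-5p, summed to 195 to 274 CPM in trained, against 210 to 318 CPM in sedentary kinase dead, and to 199 to 302 CPM in trained, against 222 to 311 CPM in sedentary wild type. The smooth muscle sum had a median of 128655 CPM in trained and 151116 CPM in sedentary kinase dead, and of 124559 CPM in trained and 149248 CPM in sedentary wild type. The lymphocyte sum had medians of 5055 CPM in trained and 5333 CPM in sedentary kinase dead, and of 4977 CPM in trained and 5718 CPM in sedentary wild type. The medians of these 3 lists were lower in the trained groups of both genotypes. Of the 9 lymphocyte features, however, 5 were higher and 4 lower in trained wild type (median log2 fold change 0.04). In trained kinase dead 1 was higher and 8 lower (median -0.14). Mean miR-150-5p was 1949 CPM in trained and 1680 CPM in sedentary wild type, and 2351 CPM in trained and 2435 CPM in sedentary kinase dead. A sum follows its most abundant features. In the smooth muscle list miR-143-3p, at a mean of 135497 CPM, had an averaged log2 fold change of -0.11. miR-145a-5p, at 2237 CPM, had 0.14. The endothelial sum had a median of 46415 CPM in trained and 61349 CPM in sedentary kinase dead, but of 54405 CPM in trained and 49247 CPM in sedentary wild type. The striated muscle sum had a median of 1167 CPM in trained and 829 CPM in sedentary kinase dead, and of 3546 CPM in trained and 1503 CPM in sedentary wild type. By feature, 4 of its 6 were lower and 2 higher in trained kinase dead (median log2 fold change -0.76). In wild type all 6 were higher in the trained group (median 0.59). The red cell, epithelial and adipose sums differed in opposite directions in the 2 genotypes. The ranges of trained and sedentary libraries overlapped for all 8 lists in both genotypes. Median totals were higher in the trained groups, as given above. Their part in the difference of miR-146b-5p was not tested.

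The companion arm miR-146b-3p is a separate count from the same hairpin. It averaged 10.6 ± 3.80 CPM in trained and 12.4 ± 5.70 CPM in sedentary kinase dead, and 8.63 ± 2.13 CPM in trained and 11.6 ± 4.62 CPM in sedentary wild type (SD, n = 6). The averaged log2 fold change was -0.32 (SE 0.21, -0.76 to 0.12), of the same sign as the 5p arm with an interval that includes 0. miR-146a-3p, at a mean of 1.06 CPM, had -0.31 (SE 0.40).

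Training contrasts of miR-146a-5p were of the same sign but less precise. The 6 trained libraries averaged 1373 ± 985 CPM and the 6 sedentary ones 1747 ± 1054 CPM in kinase dead, with a log2 fold change of -0.35 (SE 0.46, -1.30 to 0.61). In wild type they averaged 1235 ± 765 CPM trained and 1556 ± 1026 CPM sedentary, with -0.33 (SE 0.46, -1.29 to 0.62). The average over genotypes was -0.34 (SE 0.33, -1.01 to 0.33). The wild type value turned with 1 library: without sedentary replicate 1, at 3589 CPM, it was 0.09.

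With the 7 libraries rich in miR-150-5p set aside, the spread of miR-146a-5p shrank. In wild type the 4 remaining trained libraries were at 637, 679, 813 and 858 CPM, against 918, 934, 1028, 1324 and 1542 CPM in the 5 sedentary ones. The trained libraries were all lower, which held for 13 of 654 features (1.99%) in the same libraries. The log2 fold change was -0.60 (SE 0.20). In kinase dead the 4 trained libraries were at 736, 746, 756 and 1085 CPM, against 840, 1047, 1056 and 1464 CPM in the 4 sedentary ones, with overlap through trained replicate 1. There the log2 fold change was -0.41 (SE 0.21).

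Keeping all 24 libraries and fitting log2 CPM of miR-150-5p as a covariate gave like values for miR-146a-5p. Its log2 fold change was -0.50 (SE 0.17) in wild type, -0.37 (SE 0.17) in kinase dead and -0.44 (SE 0.12) on average. Those of miR-146b-5p hardly moved, at -0.60 in wild type, -0.45 in kinase dead and -0.53 on average. Neither member is among the features called after adjustment in either fit, and these values too are a description. In the 17 libraries the training difference of the log2 ratio was 0.00 in wild type and -0.01 in kinase dead, so the average differences of the 2 members were of like size there.

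Among the 7 libraries taken alone, both genotypes together, miR-146b-5p was at 850, 951, 1099 and 1174 CPM in the 4 trained and at 1242, 1540 and 1670 CPM in the 3 sedentary libraries. All 4 trained libraries were lower than all 3 sedentary ones, which held for 19 of 654 features (2.91%) in those libraries. miR-146a-5p was at 1672, 2081, 2343 and 3244 CPM in the 4 trained and at 2618, 3457 and 3589 CPM in the 3 sedentary ones, with overlap. This view was added after the values were seen.

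**Figure D5:**
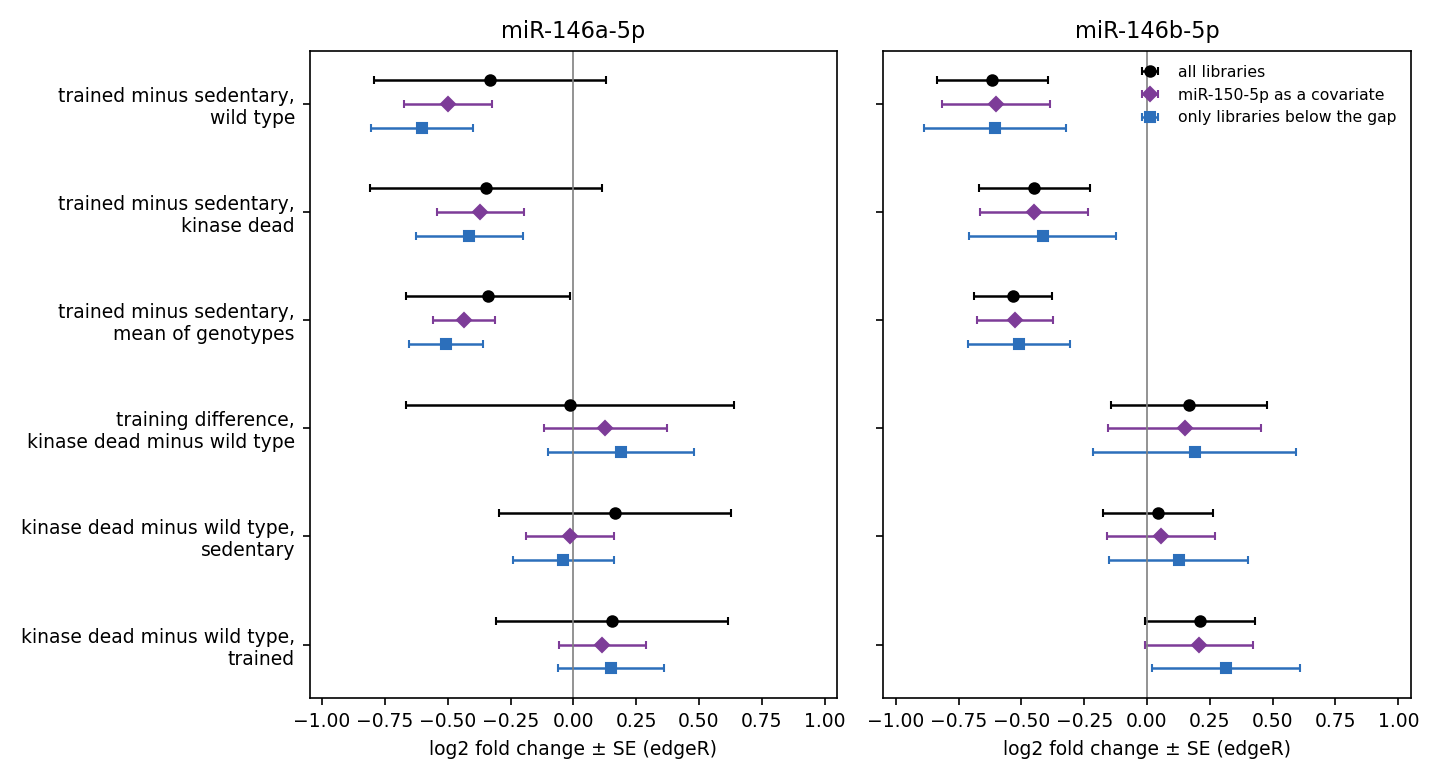
log2 fold change ± SE of miR-146a-5p (left) and miR-146b-5p (right) for the 6 comparisons, from edgeR, with all 24 libraries (black), with miR-150-5p as a covariate (purple) and in the 17 libraries below the miR-150-5p gap (blue). Training values of both members lie below 0, and for miR-146a-5p the SE falls to 0.17 with the covariate in wild type, against 0.46 without it.

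The difference between the genotypes in the training effect was smaller than its SE for both members. For miR-146b-5p the training effect in kinase dead minus that in wild type was 0.17 on the log2 scale (SE 0.31, -0.48 to 0.81). For miR-146a-5p it was -0.01 (SE 0.65, -1.36 to 1.33), and it was 0.19 (SE 0.29) in the 17 libraries. The intervals are wide enough to hold differences as large as the training values themselves. Of the 654 features 0 passed (0%), 13 had an unadjusted p under 0.05, and DESeq2 called 0.

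Kinase dead and wild type averages differed by less than the SE for both members, in sedentary and in trained mice, and these values are a description, since the levels entered the choice of the members. In sedentary mice miR-146b-5p averaged 1598 ± 612 CPM in kinase dead and 1550 ± 323 CPM in wild type, with a log2 fold change of 0.04 (SE 0.22, -0.41 to 0.50). miR-146a-5p averaged 1747 ± 1054 CPM in sedentary kinase dead and 1556 ± 1026 CPM in sedentary wild type, with 0.17 (SE 0.46, -0.79 to 1.12). In trained mice miR-146b-5p averaged 1171 ± 401 CPM in kinase dead and 1012 ± 140 CPM in wild type, with 0.21 (SE 0.22, -0.24 to 0.66). miR-146a-5p averaged 1373 ± 985 CPM in trained kinase dead and 1235 ± 765 CPM in trained wild type, with 0.15 (SE 0.46, -0.80 to 1.11). In both comparisons the groups overlapped for both members. Of the 654 features 0 passed in either (0%), 5 in sedentary and 6 in trained mice had an unadjusted p under 0.05, and DESeq2 called 0.

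Other miRNAs tied to the same biology were read beside the members. The list of miRNAs known in innate immune signalling had 15 tested features, with each locus of miR-9-5p and of miR-125b-5p counted separately. In the training contrast averaged over genotypes 0 of 15 passed, 7 had a positive and 8 a negative log2 fold change, with a median of -0.00. Within the genotypes the counts ran in opposite directions. In kinase dead 3 were positive and 12 negative (median -0.11), beside 306 positive and 348 negative of all 654 features. In wild type 12 were positive and 3 negative (median 0.12), beside 318 and 336 of all 654. In each genotype 0 of 15 passed and 0 had an unadjusted p under 0.05. For the difference between the genotypes 0 of 15 passed. The most abundant were miR-21a-5p, a miRNA induced in inflamed tissue, at 104645 CPM and a log2 fold change of -0.02 (SE 0.11), the 2 loci of miR-125b-5p at 3865 and 4030 CPM, and miR-99b-5p at 2968 CPM with 0.05 (SE 0.10). miR-155-5p, which like miR-146a is induced by NF-kB, had 0.03 (SE 0.56), and miR-223-3p had -0.09 (SE 0.10). The 15 values ran from -0.11 for let-7e-5p to 0.14 for miR-155-3p.

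The list of miRNAs known for promoting adipogenesis had 13 tested features, of which 0 passed, 10 had a positive and 3 a negative averaged log2 fold change, with a median of 0.07. Of all 654 features 310 were positive and 344 negative. Its most abundant features were miR-143-3p at 135497 CPM with -0.11 (SE 0.11), miR-148a-3p at 33466 CPM with -0.08 (SE 0.10), miR-30a-5p at 30157 CPM with 0.02 (SE 0.12) and miR-378a-3p at 13329 CPM with 0.19 (SE 0.10). Of the 9 lymphocyte features 0 passed, 5 had a positive and 4 a negative averaged value, with a median of 0.00. In kinase dead 1 was positive and 8 negative (median -0.14), and in wild type 5 were positive and 4 negative (median 0.04). miR-150-5p had 0.08 (SE 0.59).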

How the data were processed

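The table the authors deposited gives unnormalized counts at each mature miRNA locus for every library. TRIzol extraction and an NEBNext small RNA kit are named in the labels' protocols. The submitters' processing notes list featureCounts, Bowtie2, Trim Galore, CASAVA 1.8.2 and the build mm10. The sources used here give no other version and no setting for strand, mismatches or multiple mapping.

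Loci were named by coordinates from RefSeq (1670 of 2045) or from GENCODE hairpins (375). The members, lists and alternatives were chosen with earlier results of these data known. Replicate numbers follow accession order and only name a library. No 2 libraries of a group looked alike within sampling noise (smallest chi-square per degree of freedom 42.4 over 60 pairs).

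The filterByExpr function kept 654 features, and those below it held 0.0166% of reads. All 24 libraries entered 1 fit of 4 groups with edgeR 4.0.16 (R 4.3.3, limma 3.58.1): TMM factors, the quasi-likelihood test, and Benjamini-Hochberg adjustment over the 654 features with a threshold of 0.05. Levels are CPM on the TMM scale. Intervals cover 95%. The steps were tested on simulated data. Because levels and ratio entered the choice of the members, their contrasts are given with SE and interval and without p, also for the log2 ratio between genotypes, for which an exact permutation test had been planned. Named features were both members, the 5 others with the highest Spearman's rho of log2 CPM (prior count 2) among those of at least 10 CPM, and, per list, the 4 most abundant and any past the test. Alternatives were DESeq2 1.42.0, other scalings, no filter, only the groups compared, miR-150-5p as a covariate, leaving out the libraries above the miR-150-5p gap, 10 reads added to each count, medians in place of means, and leaving out each library in turn.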

Additional observations from a re-analysis of the deposited data

Results flagged for a closer look

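In 20 sets of 6 libraries (5 measures by 4 groups), 6 held a library separated from its nearest neighbour by a large part of the range of its group. The cut used flags about 1 in 20 sets of 6 independent normal values. These measures are linked and come from the same libraries, so that rate does not apply to their count. miR-146a-5p stood apart in trained kinase dead replicate 6, at 3244 CPM beside 1672 CPM for the next, and in sedentary wild type replicate 1, at 3589 CPM beside 1542 CPM. The ratio of miR-146a-5p to miR-146b-5p also stood apart in that sedentary wild type library, at 2.33 beside 0.978. Both libraries are among the 7 rich in miR-150-5p, with 6954 CPM in the trained kinase dead library and 6097 CPM in the sedentary wild type one.

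miR-146b-5p stood apart in trained kinase dead replicate 1, at 1939 CPM beside 1174 CPM, where its companion miR-146b-3p was also the highest of its group, at 18.1 CPM beside 10.2 CPM. It stood apart in sedentary kinase dead replicate 4 as well, at 2767 CPM beside 1670 CPM. Neither of these 2 libraries is rich in miR-150-5p: they held 736 CPM in the trained and 590 CPM in the sedentary one.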

How the results depend on the processing

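Neither member was among the features called under any alternative, and their values stand as a description, since levels and ratio entered their choice. The number of features called moved with miR-150-5p as a covariate, to 1 for training in wild type (miR-203-5p, log2 fold change 0.66, edgeR, adjusted p = 0.0418) and to 2 for training averaged over genotypes (miR-203-5p, 0.46, and miR-1981-3p, 0.51, adjusted p = 0.0440 each). For miR-146a-5p 4 values near 0 changed sign: the interaction was 0.13 with the covariate and 0.19 without the 7 libraries rich in miR-150-5p, and kinase dead against wild type in sedentary mice was -0.014 with the covariate and -0.039 without the 7. The log2 ratio for kinase dead against wild type in sedentary mice was -0.10 without the 7. The cause of these changes was not tested. All 40 values of miR-146b-5p kept their direction.

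Leaving out 1 library at a time turned the sign of some values. For miR-146a-5p, kinase dead against wild type ranged from -0.12 to 0.64 in sedentary and from -0.30 to 0.43 in trained mice, the interaction from -0.49 to 0.27 and training in wild type from -0.64 to 0.092. For miR-146b-5p, kinase dead against wild type ranged from -0.18 to 0.15 in sedentary and from -0.050 to 0.28 in trained mice, and the interaction from -0.13 to 0.39. The log2 ratio for kinase dead against wild type ranged from -0.14 to 0.43 in sedentary and from -0.33 to 0.17 in trained mice, and for training from -0.24 to 0.34 in kinase dead and from 0.033 to 0.52 in wild type. As a difference of medians, the training value of the ratio was -0.21 in kinase dead and 0.049 in wild type. Training values of miR-146b-5p stayed negative: -0.72 to -0.47 in wild type, -0.67 to -0.22 in kinase dead and -0.61 to -0.42 on average. So did those of miR-146a-5p in kinase dead, at -0.84 to -0.09, and on average, at -0.60 to -0.15. With 6 libraries a group, and 17 of the 24 below the miR-150-5p gap, precision is limited by the spread between libraries, not by the reads behind either member.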
